A study of Mus musculus with 10 samples.

Results

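The germinal centre genes described here are 9 genes that mark or run the germinal centre reaction of B cells: Bcl6, Rgs13, Gcsam, Mybl1, Mef2b, Lmo2, Basp1, Nuggc and Efnb1. They were chosen by name, and 8 of the 9 had a row among the 14450 genes of the table; Gcsam was not analysed here. The RNA came from mature B cells of the bone marrow of Chat-GFP mice at steady state, sorted by flow cytometry. In this strain fluorescence reports use of Chat, the gene of choline acetyltransferase. There were 5 libraries of Chat+ B cells and 5 of Chat- B cells, and both groups came from that reporter strain, with no treatment. The labels give no age and do not tie libraries to animals. The p-values therefore cover the spread between libraries, which may be technical.

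Germinal centres are transient structures in lymphoid follicles where activated B cells divide, mutate their antibody genes and are selected with the help of T cells. Bcl6 is the transcriptional repressor that holds B cells in this state, and Mef2b is an activator of Bcl6. The other genes act in movement, signalling, transcription and genome upkeep of the same cells. Bone marrow is not a usual site of germinal centres, and mature B cells there are mostly recirculating cells. The comparison asks whether these genes differ between mature B cells that use the Chat locus and those that do not.

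Levels are given in CPM, counts per 1000000 counts of a library. Estimated depth was 21520000 to 30050000 reads per library, so that 1 read was worth 0.0333 to 0.0465 CPM. The B cell label was checked with 8 markers, all measured in every library, with a summed level of 11402 to 12808 CPM in Chat+ and 12365 to 13032 CPM in Chat-. Of 9 markers of T cells and follicular helper T cells, only Cd4 had a row, with 0.60 ± 0.59 CPM for Chat+ and 0.47 ± 0.41 CPM for Chat- libraries (SD, n = 5). Chat- replicate 4 stood apart from the other libraries, with 1213 genes listed at 0 against 62 to 682, and 11.9% of its CPM in mitochondrial transcripts against 2.27% to 3.85%. Values without it are given for each of the 8 measured germinal centre genes and for some of the other genes. In pooled cells, fewer cells that express a gene and less RNA per cell cannot be told apart.

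Bcl6 (ENSMUSG00000022508) occupies chromosome 16 from 23965052 to 23988852 in GRCm38, on the minus strand. Its protein is known to bind its own gene, and its binding motif overlaps that of STAT factors, so the stretches before both of its RefSeq starts are shown. They are the 250 bases before the outer start (chr16:23988853-23989102) and before the inner start (chr16:23981284-23981533), which lies in intron 1 of the longer GENCODE transcript. Both are from RefSeq, build GRCm38.p6, written 5′ to 3′ on the minus strand, with matches to TTCNNNGAA in capitals. That motif reads the same on both strands.
Bcl6 outer start: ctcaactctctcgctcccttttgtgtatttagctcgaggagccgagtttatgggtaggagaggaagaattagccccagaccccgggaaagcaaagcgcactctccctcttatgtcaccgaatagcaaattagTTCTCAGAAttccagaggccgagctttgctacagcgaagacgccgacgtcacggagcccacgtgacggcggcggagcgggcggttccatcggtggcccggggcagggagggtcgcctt
Bcl6 inner start: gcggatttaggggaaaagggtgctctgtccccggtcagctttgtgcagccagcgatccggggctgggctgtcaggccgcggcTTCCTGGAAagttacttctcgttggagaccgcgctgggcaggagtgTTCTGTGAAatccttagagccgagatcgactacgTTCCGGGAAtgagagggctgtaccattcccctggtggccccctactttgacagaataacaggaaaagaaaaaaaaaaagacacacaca
The outer window held 1 match, TTCTCAGAA, beginning 118 bases before the start. The inner window held 3, TTCCTGGAA, TTCTGTGAA and TTCCGGGAA, beginning 168, 122 and 88 bases before it. Of 32851 RefSeq windows of the same length, 7.02% held at least 1 match. RefSeq windows were matched for 6 of the 9 genes (7 windows in all), and the 5 windows of Rgs13, Mef2b, Basp1, Gcsam and Efnb1 held 0 matches. The MEF2 motif CTANNNNTAG, which also reads the same on both strands and overlapped no TTCNNNGAA match, was in 3.2% of all windows and in 0 of the 7. A match is a description of the letters and does not show binding.

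Lmo2 and Bcl6 were abundant in both groups, while the other 6 measured genes were near the low end of the table. Per kilobase of merged exon length, the level over the 10 libraries was 109 ± 20.3 CPM per kb for Lmo2, 15.7 ± 2.34 for Bcl6, 2.33 ± 0.845 for Basp1 and 1.38 ± 0.673 for Rgs13 (SD). It was 1.21 ± 0.412 CPM per kb for Efnb1, 0.993 ± 0.359 for Mybl1, 0.974 ± 0.611 for Mef2b and 0.590 ± 0.378 for Nuggc. The lowest Lmo2 library (76.9 CPM per kb) was above the highest Bcl6 library (18.7), and the lowest Bcl6 library (10.8) was above the highest Basp1 library (3.63). From Basp1 down, each neighbour in this order overlapped the next. By mean CPM, Lmo2 ranked above 94.4% of the genes in the table and Bcl6 above 85.4%, and the other 6 above 15.1% to 30.5%.

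**Figure D1:**
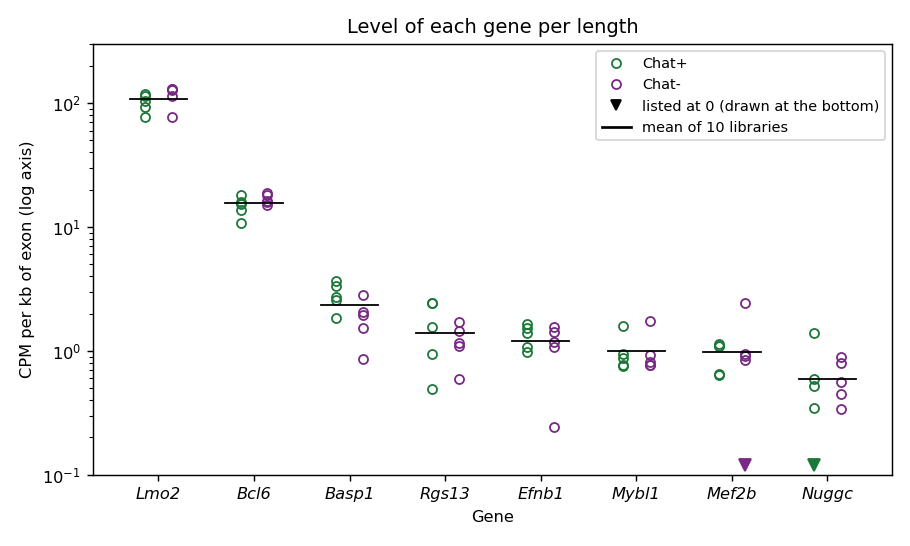
Level of each gene in CPM per kb of merged exon length (log axis), 1 circle per library, by group; lines are means of the 10 libraries and triangles mark libraries listed at 0. Lmo2 and Bcl6 each stand clear of all other genes, and the remaining 6 overlap their neighbours.

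For none of the 8 measured germinal centre genes did a difference between Chat+ and Chat- cells pass the test. With limma and Benjamini-Hochberg adjustment over all 14450 genes, 0 of 8 passed a threshold of 0.05, against 0.00692% of all genes (1 gene, lower in Chat+). At an unadjusted p under 0.05 there were 0 of 8, against 4.51% of all genes. The groups overlapped for all 8, while they did not overlap for 1.43% of all genes. Of the 8 log2 fold changes, 4 were above 0, against 57.0% of all genes, with a median of 0.12 against 0.04 over all genes. Without Chat- replicate 4, again 0 of 8 passed, against 0.0415% of all genes. At an unadjusted limma p under 0.05 there were then 2 of 8 (Lmo2 and Basp1), against 7.32% of all genes. The median of the 8 was then -0.08, against -0.002 over all genes. A missed threshold does not show equal levels, so the interval of each difference is given.

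**Figure D2:**
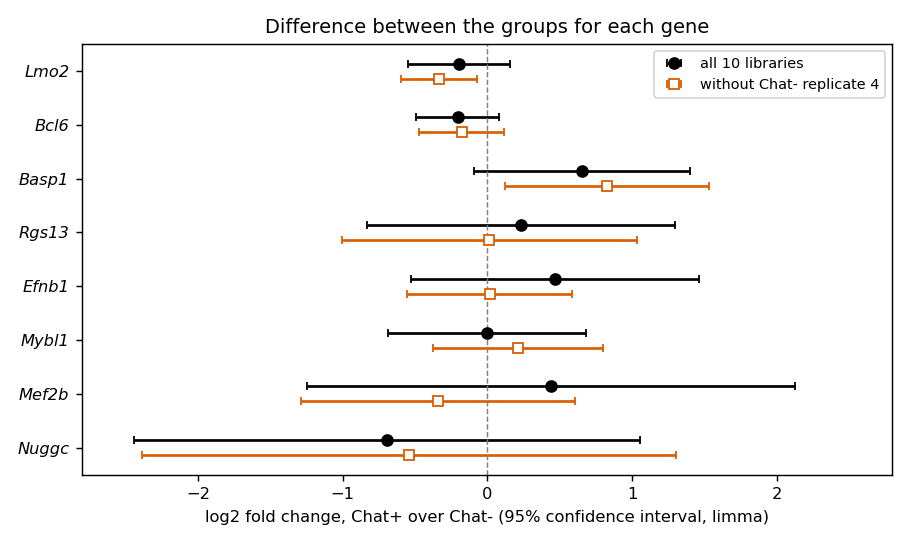
Log2 fold change of each gene, Chat+ over Chat-, with its 95% confidence interval from limma, for all 10 libraries (filled circles) and without Chat- replicate 4 (open squares). All intervals with 10 libraries span 0; without Chat- replicate 4, those of Lmo2 (-0.59 to -0.07) and Basp1 (0.12 to 1.53) do not.

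Bcl6, the repressor that defines the germinal centre B cell state, was at 106, 92.1, 121, 102 and 72.5 CPM in Chat+ replicates 1 to 5, and at 125, 99.9, 109, 121 and 107 CPM in Chat- replicates 1 to 5. Chat+ replicate 5 was the lowest library, and the other 4 Chat+ libraries lay within or just below the Chat- range. The means were 98.6 ± 17.9 and 112 ± 10.7 CPM (SD, n = 5; log2 fold change -0.20 ± 0.13, SE, limma adjusted p = 0.999). The 95% confidence interval of the fold ran from 0.711 to 1.06 with all 10 libraries. Without Chat- replicate 4 the log2 fold change was -0.18 ± 0.13 (95% confidence interval -0.47 to 0.12). An exact two-sided permutation test gave p = 0.17, where the smallest p that 5 against 5 allows is 0.0079.

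Mef2b, the activator of Bcl6, was measured with few reads. It was at 1.59, 1.55, 0.909, 1.55 and 0.891 CPM in Chat+ replicates 1 to 5 and at 1.18, 3.41, 1.27, 0 and 1.33 CPM in Chat- replicates 1 to 5. The highest and the lowest library were both Chat-, and the Chat+ libraries lay between them. Chat- replicate 4 was listed at 0, where 3 reads would be 0.139 CPM. The means were 1.30 ± 0.364 and 1.44 ± 1.23 CPM, while the log2 fold change was 0.44 ± 0.78 (SE, adjusted p = 0.999). Its sign turned without Chat- replicate 4 (-0.34 ± 0.43, adjusted p = 0.918). The fold interval, 0.422 to 4.38, was the widest toward higher levels. In the annotation Mef2b overlaps Borcs8, a lysosome positioning gene on the same strand, so reads of the overlap are of uncertain origin. Of the short stretches of fixed length in Mef2b transcripts, 2.26% also occurred in other genes, chiefly Borcs8 and Mef2c. Borcs8 averaged 23.2 ± 3.57 and 23.4 ± 2.58 CPM in the same groups, and was at 27.3 CPM in the library where Mef2b was at 0.

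Lmo2 encodes an adaptor that joins transcription factors in blood and endothelial cells and is a marker of germinal centre B cells. Its level was 254, 248, 200, 224 and 166 CPM in Chat+ replicates 1 to 5 and 279, 279, 283, 169 and 249 CPM in Chat- replicates 1 to 5. Chat+ replicate 5 and Chat- replicate 4 were both low, and 3 Chat- libraries were higher than every Chat+ library. The means were 219 ± 36.2 and 252 ± 48.4 CPM (log2 fold change -0.19 ± 0.16, SE, adjusted p = 0.999, exact permutation p = 0.29). Without Chat- replicate 4, the Chat- mean was 272 ± 15.8 CPM (SD, n = 4), and the log2 fold change was -0.33 ± 0.12. The exact permutation p was then 0.040, unadjusted over the 8 genes tested, and limma over all genes gave an adjusted p of 0.521. At an unadjusted p under 0.05, limma then listed 7.32% of all genes.

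Mybl1, also called A-Myb, is a transcription factor of dividing germinal centre B cells. It was at 4.17, 8.54, 4.77, 5.06 and 4.07 CPM in Chat+ replicates 1 to 5 and at 4.97, 4.18, 4.12, 9.38 and 4.39 CPM in Chat- replicates 1 to 5. In each group 1 library, Chat+ replicate 2 and Chat- replicate 4, was well above the other 4. The means were 5.32 ± 1.85 and 5.41 ± 2.25 CPM (log2 fold change 0.00 ± 0.32, SE, adjusted p = 0.999, fold interval 0.620 to 1.6). Without Chat- replicate 4 the log2 fold change was 0.21 ± 0.27 (adjusted p = 0.919). Over the other 4 Chat- libraries the coefficient of variation was 8.78%, where counting error alone would give 9.15%.

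Rgs13 encodes a regulator that shortens signalling of G protein coupled receptors, among them chemokine receptors. It was at 2.57, 4.03, 4.0, 1.55 and 0.814 CPM in Chat+ replicates 1 to 5 and at 2.84, 2.39, 1.80, 0.976 and 1.93 CPM in Chat- replicates 1 to 5. Chat+ held both the 2 highest libraries and the lowest. The means were 2.59 ± 1.44 and 1.99 ± 0.699 CPM (log2 fold change 0.23 ± 0.49, SE, adjusted p = 0.999, fold interval 0.563 to 2.45). Without Chat- replicate 4 the difference was 0.02 ± 0.47 on the log2 scale.

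Efnb1 encodes ephrin B1, a surface ligand through which germinal centre B cells touch Eph receptors on T cells. It was at 4.82, 5.30, 3.38, 3.71 and 5.74 CPM in Chat+ replicates 1 to 5 and at 3.71, 4.05, 4.86, 0.836 and 5.36 CPM in Chat- replicates 1 to 5. Chat- replicate 4 had an estimated 18 reads, and the other 4 Chat- libraries lay within the Chat+ range. The means were 4.59 ± 1.01 and 3.76 ± 1.76 CPM (log2 fold change 0.47 ± 0.46, SE, adjusted p = 0.999). Without that library the log2 fold change was 0.02 ± 0.26, with an interval of -0.55 to 0.58.

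Basp1, a membrane-attached signalling protein that is also a transcriptional corepressor, had the smallest p of the 8. It was at 6.70, 7.30, 5.13, 3.67 and 5.50 CPM in Chat+ replicates 1 to 5 and at 3.08, 3.93, 4.12, 5.67 and 1.73 CPM in Chat- replicates 1 to 5. Only Chat- replicate 4 lay above 3 of the Chat+ libraries, and only Chat+ replicate 4 lay below any of the other Chat- libraries. The means were 5.66 ± 1.42 and 3.71 ± 1.45 CPM (log2 fold change 0.65 ± 0.34, SE, adjusted p = 0.999). The fold interval was 0.937 to 2.64, and the exact permutation p was 0.079. Without Chat- replicate 4, the log2 fold change was 0.83 ± 0.32, with an exact permutation p of 0.032 (unadjusted over the 8 genes) and an adjusted p of 0.571 over all genes.

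Nuggc, a nuclear GTPase of germinal centre B cells linked to genome stability, was at 1.67, 3.96, 0, 0.979 and 1.47 CPM in Chat+ replicates 1 to 5. In Chat- replicates 1 to 5 it was at 1.26, 2.27, 1.59, 2.55 and 0.965 CPM. Chat+ held both extremes, with Chat+ replicate 3 listed at 0, where 3 reads would be 0.109 CPM. The means were 1.62 ± 1.46 and 1.73 ± 0.670 CPM (log2 fold change -0.69 ± 0.81, SE, adjusted p = 0.999, fold interval 0.184 to 2.08). Without Chat+ replicate 3 the log2 fold change was 0.11 ± 0.48, so its sign rested on that library. It was -0.54 ± 0.85 without Chat- replicate 4.

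**Figure D3:**
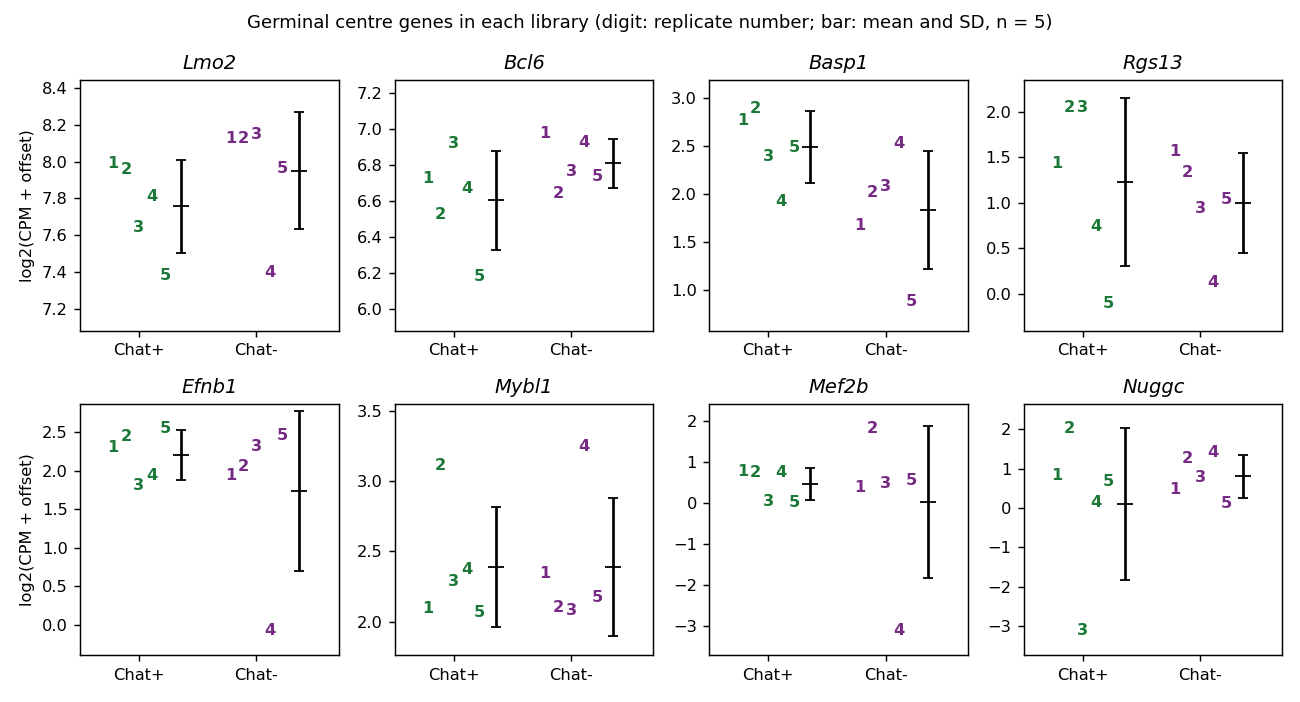
Deposited log2(CPM + offset) of each gene in each library; digits are replicate numbers, and bars give the mean and SD of the 5 libraries of a group. Vertical axes differ between panels. The groups overlap for all 8 genes, and Chat- replicate 4 is the lowest library for Mef2b and Efnb1 and the highest for Mybl1.

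Within Chat+, the spread between libraries was larger than counting error for all 8 genes. There, the coefficient of variation was 18.1% for Bcl6 and 16.6% for Lmo2, where counting error would give 1.97% and 1.32%. For the low genes it ranged from 22.1% for Efnb1 to 90.3% for Nuggc, with counting errors of 8.17% to 17.2%. Chat+ replicate 5 was the lowest library for 4 of the 8 genes (Bcl6, Lmo2, Mybl1 and Rgs13), and Chat+ replicate 2 the highest for 3 (Rgs13, Basp1 and Nuggc). Correlations between members over the 10 libraries moved with Chat- replicate 4. The highest, between Mef2b and Efnb1, was 0.85 with it and -0.10 without it, and the lowest, between Mybl1 and Efnb1, was -0.65 with it and 0.05 without it.

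The 5 genes whose levels followed Bcl6 most closely, of 8939 genes with a mean of at least 10 CPM, were Zfp446, Zfp36, Mthfsl, Aftph and Slc16a1. Their Pearson correlations over the 10 libraries were 0.90, 0.89, 0.88, 0.88 and 0.88, and their Spearman correlations 0.85, 0.90, 0.79, 0.76 and 0.75. Without the 2 libraries farthest from the Bcl6 median (Chat+ replicate 5 and Chat- replicate 1), the Pearson values were 0.80, 0.81, 0.78, 0.60 and 0.54. This is a ranking of many genes over few libraries that share depth and composition, and it is given as a description.

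Other genes of the germinal centre programme were read from lists of 106 genes, of which 90 had a row. These lists also hold Eph and ephrin genes and relatives of the members, which were listed by family. Of these, 0 passed in either direction over all genes (limma). At an unadjusted p under 0.05 there were 3 higher and 6 lower in Chat+. Among these, the Eph and ephrin list held 1 of the lower genes, and the family relatives 1 of the higher and 2 of the lower. Of all 14450 genes, 505 were higher and 146 lower at that threshold (4.51% in either direction). The median log2 fold change of the 90 was -0.02, and -0.01 without Chat- replicate 4. With all libraries 41 of the 90 were above 0, against 57.0% of all genes.

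Genes that work on antibody DNA were measured in full, with 16 of 16 listed genes, and 0 passed. Among the genes with the smallest p, the repair gene Hmces was at 39.4 ± 5.41 CPM in Chat+ against 33.9 ± 5.59 CPM in Chat- (SD, n = 5, limma adjusted p = 0.999). Exo1, the gene of an exonuclease of mismatch repair, was at 5.46 ± 1.92 against 3.67 ± 1.75 CPM (log2 fold change 0.77, adjusted p = 0.999). Its low library was Chat- replicate 4, at 0.623 CPM, and without it the Chat- mean was 4.43 ± 0.470 CPM (SD, n = 4) and the log2 fold change 0.24.

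Bcl6 corepressors and partners were also measured in full (8 of 8, 0 passed). The corepressor gene Bcor was at 118 ± 6.05 CPM in Chat+ and 128 ± 15.5 CPM in Chat-, Mta3 at 65.3 ± 8.87 against 59.7 ± 6.97, and Ctbp1 at 269 ± 28.6 against 253 ± 67.7. The low Ctbp1 library was Chat- replicate 4, at 132 CPM. Without it the Chat- mean was 284 ± 1.88 CPM (SD, n = 4), and the log2 fold change turned from 0.13 to -0.08. Among 17 transcription and chromatin regulators, 0 passed and 4 had a log2 fold change above 0. The smallest p was that of Myc, which drives growth of selected germinal centre cells, at 62.0 ± 19.4 against 40.8 ± 8.90 CPM (log2 fold change 0.58, adjusted p = 0.873). Bach2, a repressor that favours the germinal centre over plasma cell fate, was at 278 ± 35.9 against 338 ± 45.9 CPM (log2 fold change -0.28, adjusted p = 0.999). Mef2c, the abundant relative of Mef2b, was at 426 ± 49.2 against 495 ± 54.6 CPM.

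Of the 5 genes that close the programme, 0 passed. Zbtb20, a factor of memory and plasma cells, was the only gene of the programme lists without overlap between groups, at 128 ± 21.0 CPM in Chat+ and 89.4 ± 18.8 CPM in Chat- (log2 fold change 0.53, adjusted p = 0.693). Over all genes, 1.43% had no such overlap. Prdm1, the repressor that ends the germinal centre state, was at 2.41 ± 0.760 against 2.33 ± 1.21 CPM, and Irf4 at 147 ± 14.6 against 149 ± 20.2 CPM. Leaving out Chat- replicate 4 moved the log2 fold change of Prdm1 from 0.10 to 0.35 and turned that of Irf4 from -0.02 to 0.06.

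Positioning and surface genes gave the same count, with 0 of 9 and 0 of 10 passed. S1pr2, the receptor that confines cells to the germinal centre, was at 2.22 ± 0.515 CPM in Chat+ and 1.63 ± 0.818 CPM in Chat- (log2 fold change 0.65, adjusted p = 0.999), with Chat- replicate 4 the lowest at 0.239 CPM. Without that library its log2 fold change was 0.14 ± 0.32 (SE). Plxnb2, a semaphorin receptor, was at 18.5 ± 3.06 against 15.4 ± 1.83 CPM, and Gpr183, a receptor that draws cells to the follicle edge, at 113 ± 17.7 against 123 ± 17.6 CPM. Fas, a death receptor raised on germinal centre B cells, was at 3.78 ± 0.818 against 3.02 ± 1.04 CPM. Cd38, which mouse germinal centre B cells lose, was at 285 ± 42.9 against 283 ± 59.6 CPM. The smallest p values were those of Cd83 (135 ± 9.80 against 158 ± 10.6 CPM), Icosl (347 ± 50.6 against 421 ± 44.4 CPM) and Cd86 (35.1 ± 4.63 against 29.7 ± 6.85 CPM), all with adjusted p = 0.999. Leaving out Chat- replicate 4 moved the log2 fold change of Fas from 0.35 to 0.18, of Cd38 from 0.02 to 0.14 and of Gpr183 from -0.12 to -0.05.

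Of 20 genes of the Eph and ephrin family, 8 had a row, all with group means under 5 CPM, and 0 passed. The smallest p beside Efnb1 were those of Epha2 (2.14 ± 2.50 against 3.93 ± 0.858 CPM) and Epha3 (0.970 ± 0.672 against 0.606 ± 0.967 CPM). The B class receptors Ephb2 and Ephb4 were at 1.5 ± 0.780 against 1.06 ± 0.333 CPM and 1.04 ± 0.741 against 0.688 ± 0.561 CPM. The log2 fold change of Epha3 was 0.93, and 1.57 without Chat- replicate 4. Family relatives of the germinal centre genes had 19 of 23 rows, and 0 passed. Marcksl1, a relative of Basp1 in function, had the smallest p (45.5 ± 7.17 against 61.4 ± 8.03 CPM, log2 fold change -0.44, adjusted p = 0.734). Rgs2 was at 34.1 ± 4.90 against 44.0 ± 6.80 CPM, and Tal1, a partner of Lmo2, at 2.46 ± 1.25 against 0.911 ± 0.898 CPM, with a log2 fold change of 1.84 that was 1.21 without Chat- replicate 4, where Tal1 was listed at 0. Mybl2, the Myb relative of cycling cells, was at 7.28 ± 3.56 against 4.94 ± 0.560 CPM.

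**Figure D4:**
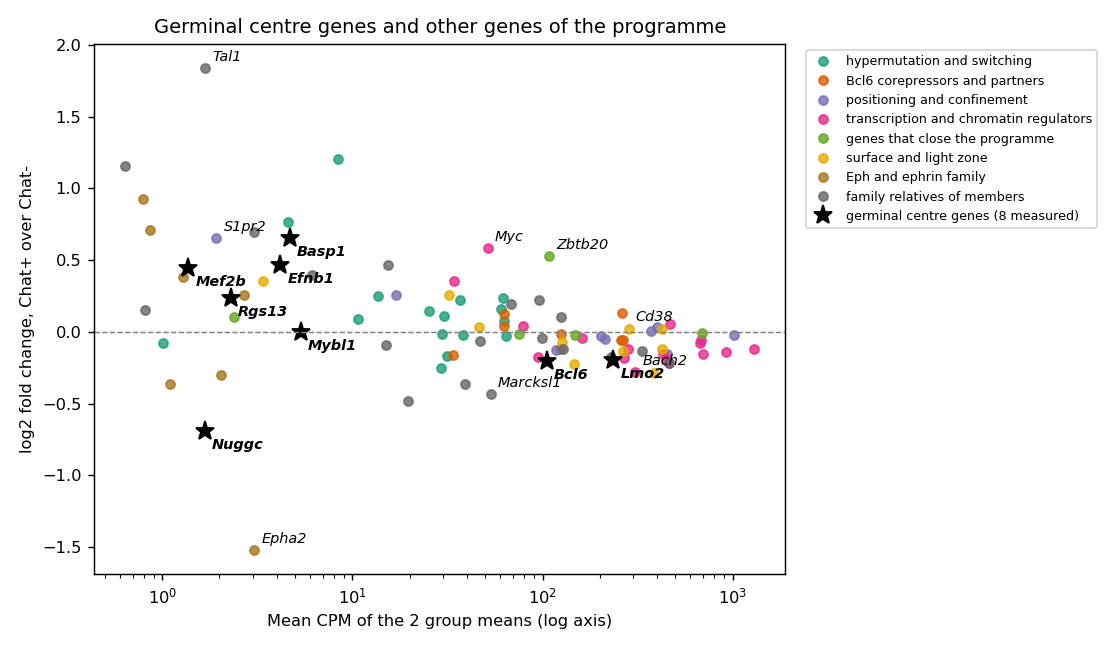
Mean level (CPM, log axis) against log2 fold change, Chat+ over Chat-, for the 8 measured germinal centre genes (stars) and other listed genes (circles). Circles are the other programme genes, Eph and ephrin genes and family relatives, coloured by list. A gene on 2 lists is drawn for each. Some genes of low level, such as Tal1, Epha2 and Nuggc, lie far from 0, while Mybl1, also low, lies near it (-0.003). Bcl6 (-0.20) and Lmo2 (-0.19) lie nearer 0 than Myc (0.58) and Zbtb20 (0.53).

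Markers of other cells were read beside the genes that such cells also use. The 9 stromal and endothelial markers summed to 286 to 411 CPM in Chat+ and 300 to 551 CPM in Chat-, where the highest was Chat- replicate 4. Of these 9, 8 had a log2 fold change above 0, and 0 passed. Their median log2 fold change was 0.64, and 1.20 without Chat- replicate 4, where that of the matrix gene Sparc was 1.54 and that of the collagen gene Col3a1 1.46. Except in Chat- replicate 4, most of the sum was Pecam1, at 253 ± 6.83 against 253 ± 44.2 CPM over all libraries. The spread of the sum did not follow that gene. In Chat- replicate 4, Pecam1 was at its lowest, 177 CPM, while Col1a1, Col1a2 and Col3a1 were at their highest, 111, 99.2 and 92.7 CPM. The endothelial markers Kdr and Cdh5 were low, at 2.74 ± 1.69 against 2.56 ± 3.32 CPM and 1.65 ± 1.44 against 1.83 ± 2.08 CPM. Leaving out Chat- replicate 4 moved the log2 fold change of Kdr from 0.69 to 1.32 and turned that of Cdh5 from -0.12 to 0.40. The 8 monocyte and macrophage markers summed to 54.5 to 103 CPM in Chat+ and 37.8 to 206 CPM in Chat-, again with Chat- replicate 4 the highest. For 7 of the 8 the log2 fold change was above 0 (median 0.32, and 0.72 without that library), and 0 passed. All 6 measured precursor B cell markers had a log2 fold change below 0 (median -0.37, and -0.56 without Chat- replicate 4), and 0 passed. Among them the recombinase gene Rag1 was at 1.05 ± 0.659 CPM in Chat+ and 4.74 ± 1.92 CPM in Chat-, with no overlap (limma adjusted p = 0.337). Of 5 plasma cell markers, 3 were above 0 and 0 passed (median 0.10, and 0.30 without Chat- replicate 4). Jchain, of the antibody joining chain, had a log2 fold change of 1.61 and Mzb1, a secretory pathway gene, of 0.52. That of Prdm1 was 0.10 and that of Xbp1 was -0.01. The remaining plasma cell marker, Sdc1, was not among those above 0 with all libraries. The 10 measured erythroid and progenitor markers summed to 337 to 611 CPM and 302 to 724 CPM. Of 14 proliferation markers, 13 had a log2 fold change above 0, against 57.0% of all genes (median 0.98, and 0.86 without Chat- replicate 4). Of the 14, 11 were higher at an unadjusted p under 0.05 (limma), against 505 of all 14450 genes, and 0 passed the adjusted threshold. The groups did not overlap for 3, against 1.43% of all genes in either direction. Beside these markers the log2 fold change of Mybl1 was 0.00, and the difference between the 2 was not tested. The part of these cells in the levels of the germinal centre genes was not tested.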

How the data were processed

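RNA of the sorted B cells was made into libraries with a strand-specific kit, per the labels' protocols. The submitters' processing notes name cutadapt 2.6, Salmon 0.14.2 and the build GRCm38.p6. Annotation, strand setting and normalization tool: not given in the sources used here. The deposited values are log2 values: all 10 libraries share the lowest value, -3.1228, and CPM after removal of that offset (0.1148 CPM) sum to 1000000 in each library.

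Depth was estimated from the step that makes most values under 3 CPM whole reads. Only 38.6% to 52.5% of them were whole within 0.01 reads, so counts were not recovered and the planned count tests were not run. limma-voom on the estimated reads was run as an alternative only.

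limma 3.58.1 (R 4.3.3) was fitted on the log2 values of all 14450 genes as deposited, with a mean-variance trend, a single term for group, and Benjamini-Hochberg adjustment of two-sided p-values. Fold changes of low genes on the log2(CPM + offset) scale depend on the offset. Where a library was listed at 0, they can differ in size or sign from the difference in mean CPM. With an offset of 1 CPM the log2 fold change was -0.21 for Nuggc and 0.05 for Mef2b, against -0.69 and 0.44 as deposited. CPM, SDs and exact permutation tests were computed in Python 3.11.15. On simulated data, the fit was tested for recovery of known fold changes.

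The members and lists were chosen with earlier results of these data known. Named were all measured members, the genes of each list with the smallest p (up to 3), and S1pr2, Fas, Cd38, Eph receptors and family relatives for their level. Borcs8 was named after its values were seen. Some genes that this rule names are not reported here. Symbols matched 14374 of 14450 identifiers; coordinates are from GENCODE M21 and sequences from RefSeq.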

Additional observations from a re-analysis of the deposited data

Results flagged for a closer look

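Within the Chat- group, 3 of the 8 measured germinal centre genes had a single library far from the other 4, and it was Chat- replicate 4 each time. Mybl1 was at 9.38 CPM there, against 4.12 to 4.97 CPM in the others. Lmo2 was at 169 CPM, against 249 to 283 CPM. Efnb1 was at 0.836 CPM, against 3.71 to 5.36 CPM. On the log2 values, on which the check was run, the gap to the nearest library was 0.774, 0.751 and 0.795 of the whole range of the group. The check covered 16 groups of 5 libraries, and chance flags about 1 group in 20. The same library had the most genes listed at 0 (1213) and the largest mitochondrial share (11.9%), and the part of these in the 3 values was not tested.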

How the results depend on the processing

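Over 20 alternatives, 0 of the 8 germinal centre genes passed with limma, and their lowest adjusted p was 0.148, for Lmo2 with the replicate block and Chat- replicate 4 left out, a setting chosen after seeing the data. Bcl6, Lmo2, Basp1, Rgs13 and Efnb1 kept their sign in all of them. The log2 fold change of Mybl1 turned to 0.25 with library weights, 0.059 with limma-voom on estimated reads, 0.35 with only the 7 libraries with the fewest genes at 0 (also chosen after seeing the data), and 0.22 with the block and Chat- replicate 4 left out. That of Mef2b turned to -0.27 with library weights, -0.069 with quantile normalization, -0.051 with the 7 libraries, and -0.41 with the block and Chat- replicate 4 left out. That of Nuggc turned to 0.35 with the 7 libraries. With 1 library left out at a time, Mybl1 ranged from -0.18 to 0.21, Mef2b from -0.34 to 0.89 and Nuggc from -1.17 to 0.11. Counts of members past an exact permutation p of 0.05 ranged from 0 to 2 (Lmo2 and Basp1 without Chat- replicate 4, Basp1 without Chat+ replicate 4).

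Over all genes, 105 passed with library weights, 3 without the trend, 17 with the 7 libraries, 0 with limma-voom (652 at an unadjusted p under 0.05) and 1 to 6 with 1 library left out. Of the other programme and family genes, 1 passed with library weights (Marcksl1, log2 fold change -0.44, limma adjusted p = 0.042). With the block and Chat- replicate 4 left out, 1 passed (Zbtb20, 0.64, adjusted p = 0.029). With the replicate block 6 genes passed, and 82 with Chat- replicate 4 also left out. Libraries of equal number correlated at -0.20 to 0.23, and 3 of 5 Chat+ libraries correlated best with their own number. Whether libraries of equal number were paired cannot be told from these values. The causes of the shifts in these counts were not tested.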
